A study of Rattus norvegicus with 10 samples.

Results

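The AMPA and NMDA receptor subunits described here are 10 genes taken by name, with no threshold on a measured value: the AMPA receptor genes Gria1, Gria2, Gria3 and Gria4 and the NMDA receptor genes Grin1, Grin2a, Grin2b, Grin2c, Grin2d and Grin3a. All 10 were found among the 17168 genes of the deposited tables, and all 10 were among the 12161 genes with enough reads to be tested. Transcripts of the left hippocampus were sequenced in 10 male TgF344-AD rats aged 11 months, 1 library per rat. TgF344-AD is a rat model of Alzheimer's disease that carries human disease transgenes under a mouse prion promoter. The 5 untreated rats ate plain chow and the 5 RG2833 rats ate chow with 750 mg of RG2833 per kg from 5 months of age for 6 months, so both groups carry the transgenes. RG2833 inhibits the histone deacetylases HDAC1 and HDAC3. The question posed by the design was how RG2833 changes hippocampal gene expression in transgenic males. One sentence of the design text names ibudilast as the drug, whereas the title and the treatment labels name RG2833. Wild-type rats were not analysed here.

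AMPA receptors are tetramers of the subunits GluA1 to GluA4 (genes Gria1 to Gria4) and carry most fast excitatory current at synapses. NMDA receptors open when glutamate, a co-agonist and depolarization coincide, pass calcium and start the forms of synaptic plasticity studied most in the hippocampus. Each NMDA receptor holds the obligatory subunit GluN1 (Grin1) together with GluN2 subunits (Grin2a to Grin2d), which set its kinetics, or with GluN3 subunits such as GluN3A (Grin3a), which lower its calcium permeability.

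The libraries held 15118203 to 18533520 expected counts each, and the members had from 61 counts (Grin3a) to 13341 counts (Gria2) in a library. Values below are CPM, that is, counts per 1000000 counts of a library whose size was corrected by TMM, edgeR's trimmed-mean scaling. They are not divided by transcript length, so they compare libraries within a gene and not the genes with one another. Every marker list of hippocampal neurons was detected in every library, with summed levels of 346 to 784 CPM (untreated) and 367 to 764 CPM (RG2833) for 7 genes of CA3 and CA2 pyramidal cells and 176 to 381 CPM (untreated) and 208 to 338 CPM (RG2833) for 4 genes of dentate granule cells. Markers of tissue next to the hippocampus were present too: the summed level of 8 choroid plexus genes ran from 25.2 to 7866 CPM in untreated and from 6.64 to 9181 CPM in RG2833 libraries, and that of 6 thalamic genes from 48.9 to 113 CPM and from 46.8 to 68.8 CPM. Ribosomal RNA, counted under Rn45s and Rn28s, took 4.07% to 11.4% of the counts. The libraries of untreated replicate 3 and of RG2833 replicates 4 and 5 stood apart in several members. Many of the correlations, ratios and fold changes below are given with and without them.

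None of the 10 members passed the test of RG2833 against untreated. In edgeR's quasi-likelihood test with Benjamini-Hochberg adjustment over the 12161 genes, 0 members and 0 genes in all (0%) had an adjusted p under 0.05, and the smallest adjusted p of any gene was 0.841. The unadjusted p was under 0.05 for 0 members and for 688 genes in all (5.66%). No member had groups whose CPM values did not overlap, against 122 genes in all (1.00%). The fitted mean was higher in RG2833 for 5 members and lower for 5, with a median log2 fold change of 0.03 (all genes tested: -0.01) and a median absolute log2 fold change of 0.09 (all genes tested: 0.09). DESeq2 called 6 genes, none of them a member.

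Among the AMPA receptor genes, Gria1 encodes GluA1, a subunit delivered to synapses during long-term potentiation. Gria1 stood at 428, 380, 127, 311 and 373 CPM in untreated replicates 1 to 5 and at 374, 356, 428, 235 and 201 CPM in RG2833 replicates 1 to 5. The lowest library was untreated replicate 3, followed by RG2833 replicates 5 and 4, and the groups overlapped over nearly their whole range. The means were 323 ± 118 and 319 ± 96.6 CPM (SD, n = 5 each). The log2 fold change was -0.02 (SE 0.31, 95% interval -0.70 to 0.66) with an edgeR adjusted p of 0.996. The difference in mean log2 CPM had the other sign, 0.04 (two-sided exact permutation p = 0.944). The fitted value was 0.11 without RG2833 replicate 5, -0.22 without untreated replicate 3 and 0.05 without all 3 libraries.

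Gria2 encodes GluA2, the subunit that makes AMPA receptors impermeable to calcium once its transcript has been edited. Its level was 748, 653, 395, 703 and 724 CPM in untreated and 707, 701, 735, 484 and 459 CPM in RG2833 replicates 1 to 5. The same 3 libraries were the lowest, and 7 libraries lay between 653 and 748 CPM whatever the group. Means were 645 ± 144 and 617 ± 134 CPM (SD, n = 5 each), for a log2 fold change of -0.06 (SE 0.20, 95% interval -0.49 to 0.37) that was 0.03 without RG2833 replicate 5 and 0.01 without the 3 libraries.

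Gria3 and Gria4, which encode GluA3 and GluA4, hardly varied. Gria3 was at 210, 184, 209, 228 and 224 CPM in untreated and at 206, 206, 207, 176 and 207 CPM in RG2833 libraries. Of the RG2833 libraries, 4 lay within 206 to 207 CPM, and replicate 4 alone was lower. The log2 fold change was -0.07 (SE 0.07, 95% interval -0.24 to 0.09), and it was -0.03 without RG2833 replicate 4, -0.12 without untreated replicate 2 and -0.04 without the 3 libraries. Gria4, whose product is abundant in fast-spiking interneurons, was at 72.8, 60.4, 72.1, 73.8 and 67.1 CPM in untreated and at 68.4, 61.4, 73.9, 70.8 and 71.0 CPM in RG2833 libraries. Both groups covered the same range, and the log2 fold change was -0.0036 (SE 0.07, 95% interval -0.16 to 0.16), and 0.04 without RG2833 replicate 2. For these 2 genes the intervals are the narrowest of the 10 members, as the plot of fold changes shows.

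Grin1 encodes GluN1, without which no NMDA receptor assembles. Grin1 was at 724, 638, 533, 579 and 711 CPM in untreated and at 630, 646, 636, 497 and 434 CPM in RG2833 replicates 1 to 5. RG2833 replicates 5 and 4 were the lowest libraries, with untreated replicate 3 next. Its means were 637 ± 82.5 and 569 ± 97.0 CPM (SD, n = 5 each). The log2 fold change of -0.16 (SE 0.13, 95% interval -0.46 to 0.13, edgeR adjusted p 0.904) was the lowest of the 10 members in the fit of all libraries. Leaving out untreated replicate 3 gave -0.220, where Gria1 was lower at -0.222. Leaving out RG2833 replicate 5 gave -0.077, where Gria3 was lower at -0.083. Without all 3 of these libraries the value was -0.06.

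The GluN2A gene Grin2a, which is taken up into forebrain NMDA receptors as synapses mature, had the widest range of the 10 members. It was at 91.2, 82.3, 27.5, 79.1 and 104 CPM in untreated and at 98.5, 84.6, 126, 55.3 and 59.8 CPM in RG2833 libraries. Untreated replicate 3 was lowest, RG2833 replicates 4 and 5 came next, and RG2833 replicate 3 was highest. The log2 fold change was 0.14 (SE 0.33, 95% interval -0.58 to 0.87), -0.07 without untreated replicate 3 and 0.20 without the 3 libraries. Grin2b, which encodes GluN2B, the subunit that predominates early in life, was at 87.8, 67.4, 66.3, 73.8 and 90.2 CPM in untreated and at 75.8, 74.6, 109, 73.9 and 70.1 CPM in RG2833 libraries. RG2833 replicate 3 was highest and the other 4 RG2833 libraries lay at 70.1 to 75.8 CPM, inside the untreated range of 66.3 to 90.2 CPM. Its log2 fold change was 0.06 (SE 0.14, 95% interval -0.24 to 0.37), -0.07 without RG2833 replicate 3 and 0.11 without the 3 libraries.

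Grin2c encodes GluN2C, which in the forebrain is found in astrocytes and some interneurons and in the cerebellum in granule cells. It was at 115, 105, 182, 105 and 125 CPM in untreated and at 121, 148, 153, 176 and 167 CPM in RG2833 replicates 1 to 5. Of the RG2833 libraries, 4 of 5 lay above the untreated mean, but the highest value of all belonged to untreated replicate 3. Means were 126 ± 32.4 and 153 ± 21.3 CPM (SD, n = 5 each). The log2 fold change of 0.28 (SE 0.16, 95% interval -0.08 to 0.63) was the highest of the 10 members in the fit of all libraries and did not pass (edgeR p 0.113, adjusted p 0.841; two-sided exact permutation p = 0.151). Grin2a was above it with 2 surrogate variables (0.27 against 0.23) and without untreated replicate 5, RG2833 replicate 4 or RG2833 replicate 5. Without untreated replicate 3 Grin2c was at 0.45 (edgeR p 0.00167, adjusted p 0.280), without the 3 libraries at 0.32 (edgeR p 0.0108, adjusted p 0.869), and its adjusted p ran from 0.179 to 0.9998 over the alternatives tried.

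Grin2d encodes GluN2D, a subunit of slow NMDA receptors that in the adult hippocampus is found mainly in interneurons. Grin2d was at 20.1, 11.7, 21.8, 14.9 and 14.0 CPM in untreated and at 16.8, 16.1, 16.1, 22.2 and 17.8 CPM in RG2833 libraries. Its highest values were in RG2833 replicate 4 and untreated replicate 3, and the log2 fold change was 0.11 (SE 0.17, 95% interval -0.27 to 0.49). Leaving out 1 library moved it to 0.0096 (untreated replicate 2), 0.021 (RG2833 replicate 4) or 0.23 (untreated replicate 3). Grin3a was at 7.79, 3.12, 10.1, 7.59 and 6.95 CPM in untreated and at 7.81, 6.64, 5.76, 8.20 and 9.68 CPM in RG2833 libraries. Untreated replicate 2 held the lowest level of both genes. The log2 fold change of Grin3a was 0.10 (SE 0.26, 95% interval -0.48 to 0.68), and -0.09 without that library.

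**Figure D1:**
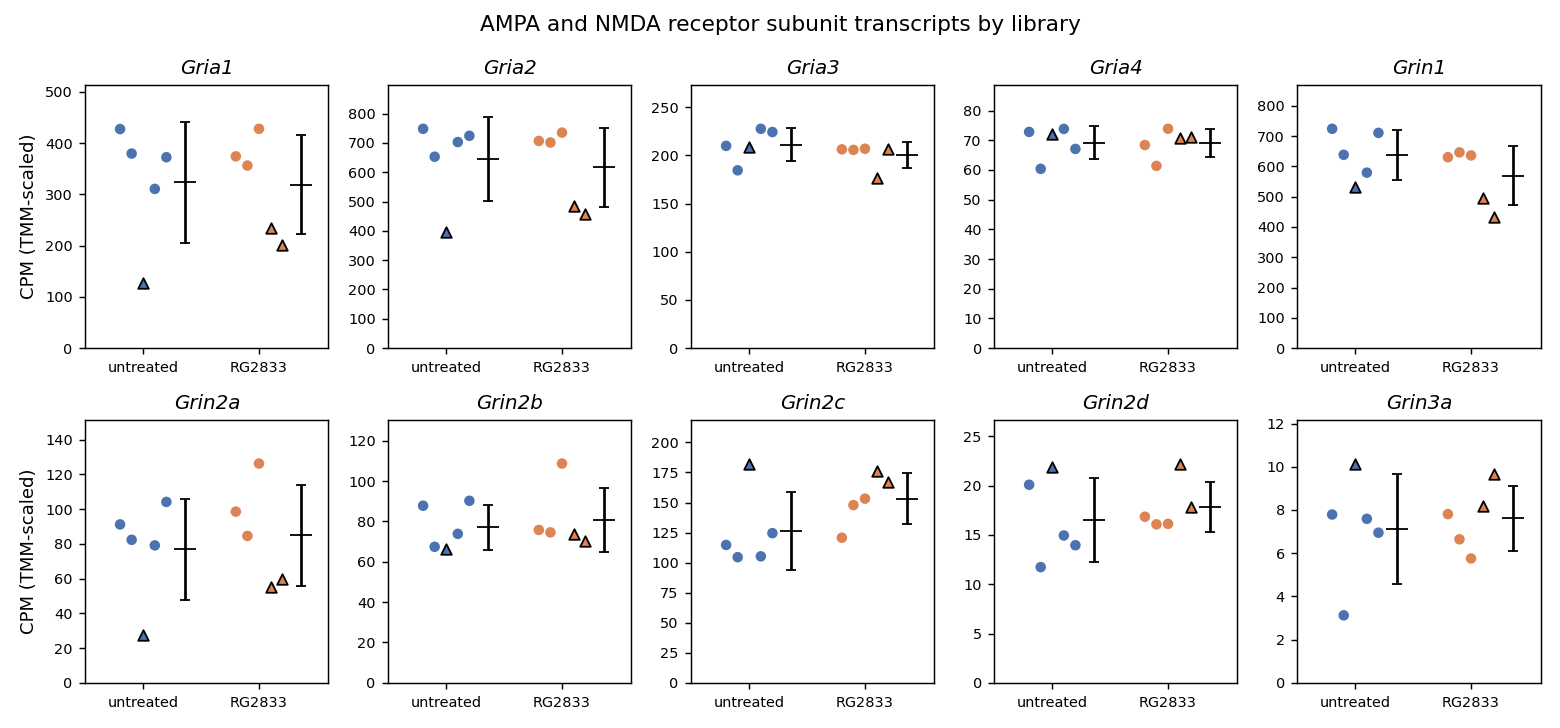
Level of each member in each library (vertical axis, CPM on the TMM-scaled library size, starting at 0) in untreated (blue) and RG2833 (orange) rats; triangles mark untreated replicate 3 and RG2833 replicates 4 and 5, and black bars show the mean ± SD of 5 libraries. The triangles are the lowest points for Gria1, Gria2, Grin1 and Grin2a and the highest points for Grin2c, while Gria3 and Gria4 stay nearly level.

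**Figure D2:**
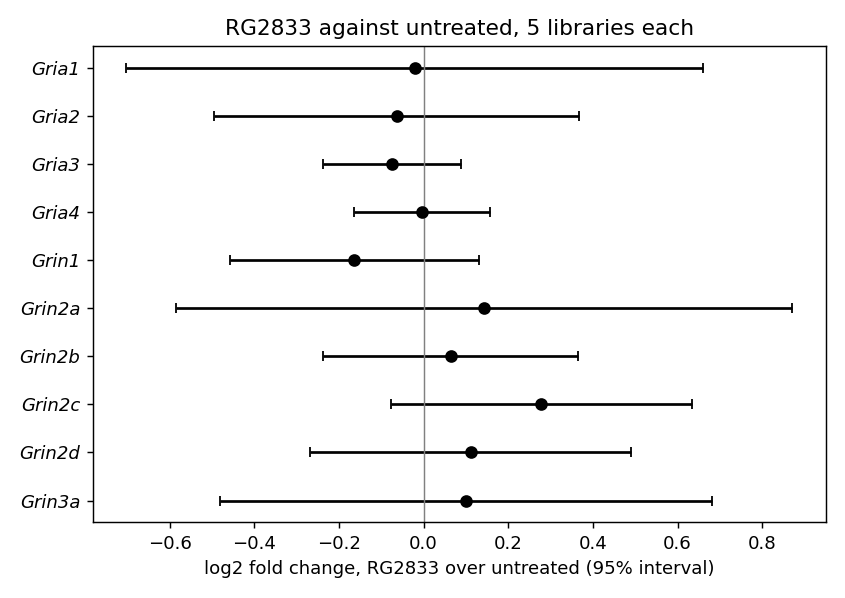
Log2 fold change of RG2833 over untreated (horizontal axis) for the 10 members, from edgeR's quasi-likelihood fit with 5 libraries per group; points are estimates and bars are 95% intervals. Every interval spans 0, from the narrow ones of Gria3 and Gria4 to that of Grin2a, which runs from -0.58 to 0.87.

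The members differed in how much they varied between rats. The highest library exceeded the lowest 4.59-fold for Grin2a, 3.38-fold for Gria1 and 3.25-fold for Grin3a, but 1.29-fold for Gria3 and 1.22-fold for Gria4. The SD of log2 CPM within groups was 0.65 for Grin2a, 0.60 for Gria1, 0.49 for Grin3a and 0.36 for Gria2, where the median over genes with a mean of at least 5 CPM was 0.16. Gria3 and Gria4, at 0.11 each, were below that median. Grin1 (0.23), Grin2b (0.23), Grin2c (0.28) and Grin2d (0.30) lay between.

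**Figure D3:**
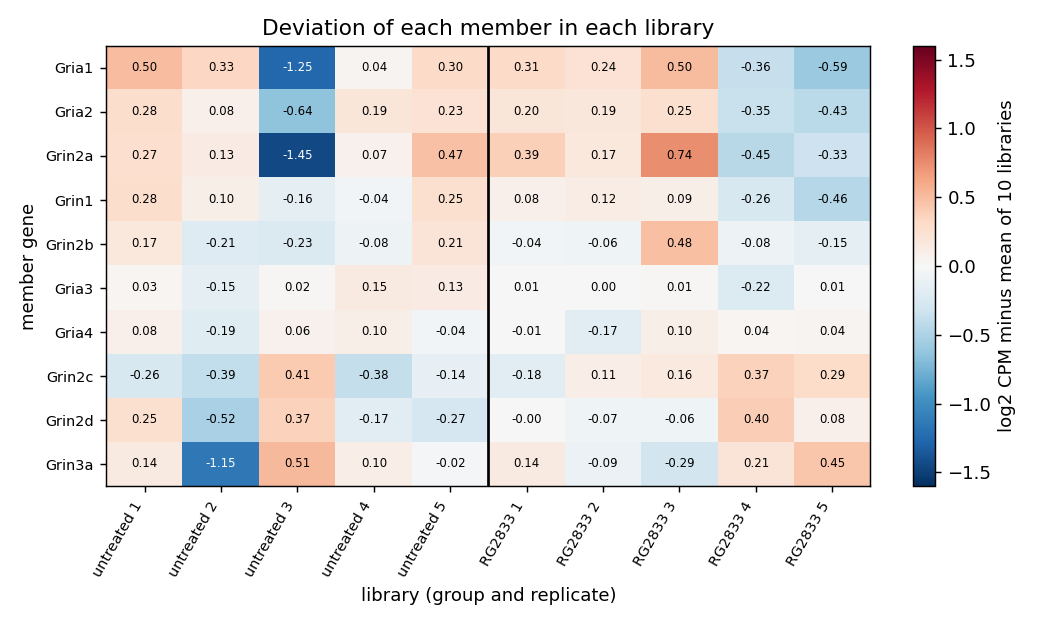
Log2 CPM of each member (rows) in each library (columns) minus the gene's mean over the 10 libraries, in colour and as printed values; the black line separates untreated from RG2833 libraries. In untreated replicate 3 the deviation is -1.45 for Grin2a and -1.25 for Gria1 but 0.51 for Grin3a and 0.41 for Grin2c, and Gria3 and Gria4 keep within -0.22 to 0.15 in every library.

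Gria1, Gria2 and Grin2a varied together over the 10 libraries, and Grin1 went with Gria2. Of the 45 pairs of members, 24 correlated positively and 21 negatively, and 5 passed a permutation test of Pearson's r with Benjamini-Hochberg adjustment over the 45 pairs, all of them positive. Gria1 and Gria2 had an r of 0.960 and a Spearman rho of 0.842 (permutation p = 0.00040, adjusted 0.0060; rho p = 0.0037, adjusted 0.034), and r was 0.883 without the 2 libraries farthest from the median of Gria1. Gria1 and Grin2a had an r of 0.956 and a rho of 0.842 (permutation p = 0.00023, adjusted 0.0054; rho p = 0.0038, adjusted 0.034; r = 0.879 without the 2 farthest libraries). For Gria2 and Grin2a, r was 0.919 and rho 0.879 (permutation p = 0.00024, adjusted 0.0054; rho p = 0.0016, adjusted 0.028; r = 0.850 without the 2 farthest libraries). Gria2 and Grin1 followed with an r of 0.833 and a rho of 0.745 (permutation p = 0.0049, adjusted 0.044; rho p = 0.017, adjusted 0.11; r = 0.852 without the 2 farthest libraries). Over the other 7 libraries, without untreated replicate 3 and RG2833 replicates 4 and 5, r was 0.441, 0.654, 0.573 and 0.477 in the same order. There 0 of the 45 pairs passed. The 3 libraries left out were picked as the lowest in Gria1, and leaving them out narrows the range, which can lower r. With 7 libraries even an r of 0.891 (Grin2a with Grin2b) did not pass (permutation adjusted p = 0.364). Whether the 4 relations depend on the 3 libraries is therefore not settled.

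Grin2d and Grin3a formed the fifth pair, with an r of 0.788 and a rho of 0.806 (permutation p = 0.0042, adjusted 0.044; rho p = 0.0068, adjusted 0.051). Without the 2 libraries farthest from the median of Grin2d r was 0.657, and over the 7 libraries it was 0.764 (permutation adjusted p = 0.431). Gria3 and Gria4 did not move with Gria1, at an r of 0.110 and -0.268 (-0.396 and 0.147 over the 7 libraries). By Spearman's rho 5 pairs passed as well, but only 3 of them were the same. The other 2 were Grin2b with Gria2 and Grin2b with Grin2a, each with a rho of 0.879 (permutation p = 0.0019 and 0.0015, adjusted 0.028), whose Pearson r of 0.605 and 0.700 did not pass (permutation adjusted p = 0.17 and 0.14). Over the 7 libraries r of these 2 pairs was 0.800 and 0.891.

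Grin2c ran against Gria2 (r = -0.751), Gria1 (r = -0.693) and Grin2a (r = -0.587), none of which passed. With each library taken as its deviation from the mean of its group, 10 of the 45 pairs passed, 7 positive and 3 negative, and the negative ones were Grin2c with Gria2 (r = -0.826, permutation adjusted p = 0.024), with Gria1 (r = -0.829, permutation adjusted p = 0.030) and with Grin2a (r = -0.803, permutation adjusted p = 0.034). Over the 7 libraries plain r, not taken as deviations, was 0.432, 0.376 and 0.649. Plain r and r of deviations are unlike measures. Whether the 3 negative relations rest on the libraries that stand apart was therefore not tested.

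The same libraries differed in their cell type markers, and in bulk tissue fewer cells of a type and less RNA per cell cannot be told apart. The mean log2 deviation of the 7 CA3 and CA2 markers was 0.29, 0.19, -0.77, 0.17 and 0.28 in untreated and 0.18, 0.34, 0.22, -0.31 and -0.60 in RG2833 libraries. That of the 4 dentate granule cell markers was 0.48, 0.59, -1.44, -0.04 and 0.21 in untreated and 0.29, -0.00, 0.47, -0.24 and -0.32 in RG2833 libraries. The 9 astrocyte markers stood at -0.25, -0.45, 0.27, -0.15 and -0.22 in untreated and at -0.23, 0.11, 0.13, 0.40 and 0.39 in RG2833 libraries. These 2 neuronal lists were lowest in the 3 libraries that were low in Gria1, Gria2 and Grin2a, and the astrocyte list was highest in them. Microglial and endothelial markers were also highest there, at 0.62 and 0.48 in untreated replicate 3, 0.21 and 0.32 in RG2833 replicate 4 and 0.26 and 0.65 in RG2833 replicate 5. Neocortical markers were highest in RG2833 replicates 4 and 5 (0.44 and 0.63), with untreated replicates 4 (0.28) and 3 (0.26) next. CA1 pyramidal cell markers did not follow this order: they were at -0.38 in untreated replicate 3 but at -0.02 and 0.26 in RG2833 replicates 4 and 5, with -0.37 in untreated replicate 4. The share of ribosomal RNA was 11.4%, 9.37% and 8.92% in those 3 libraries, and 8.71% in RG2833 replicate 3, which was not low in these genes. The part of cell makeup or of ribosomal RNA in the members' levels was not tested.

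Each member was set against the mean log2 CPM of each of 12 marker lists over the 10 libraries, a set of 120 relations chosen after the members' values were seen, of which 24 passed a permutation test of Pearson's r adjusted over the 120, 14 positive and 10 negative. Of the 24, 6 passed by Spearman's rho as well. Gria1 followed the dentate granule cell list with an r of 0.957 and a rho of 0.952 (permutation p = 1e-05, the smallest that 100000 permutations can give, and 0.00011; adjusted 0.0012 and 0.0066), 0.941 without the 2 libraries farthest from the median of the list and 0.806 over the 7 libraries. Gria2 followed the CA3 and CA2 list with an r of 0.981 and a rho of 0.745 (permutation p = 0.00028 and 0.018, adjusted 0.0070 and 0.097), 0.951 without the 2 farthest libraries, but with an r of 0.406 over the 7 libraries. Grin2a followed the dentate granule cell list at 0.927 and a rho of 0.721 (permutation p = 0.00095 and 0.023, adjusted 0.011 and 0.0995), 0.893 without the 2 farthest libraries, with an r of 0.370 over the 7 libraries. Gria1 with the CA3 and CA2 list (r = 0.956), Gria2 with the list of excitatory neurons (r = 0.831) and Grin2a with that list (r = 0.829) also passed (permutation p = 0.00045, 0.0017 and 0.0059, adjusted 0.0077, 0.014 and 0.034). Their rho was 0.721, 0.733 and 0.685 (permutation p = 0.024, 0.020 and 0.033, adjusted 0.0995, 0.097 and 0.12), r without the 2 farthest libraries was 0.855, 0.750 and 0.812, and over the 7 libraries their r was 0.258, 0.172 and -0.086.

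Grin1 followed the CA3 and CA2 list with an r of 0.848 and a rho of 0.915 (permutation p = 0.0044 and 0.00054, adjusted 0.028 and 0.022), 0.882 without the 2 farthest libraries and 0.655 over the 7 libraries. Members also ran against lists of other cells. Gria2 ran against the endothelial list with an r of -0.921 and a rho of -0.952 (permutation p = 0.00038 and 8e-05, adjusted 0.0076 and 0.0066), -0.871 without the 2 farthest libraries and -0.911 over the 7 libraries, whereas its r of -0.923 with the microglial list was 0.133 over the 7. Gria1 ran against the microglial list with an r of -0.968 and a rho of -0.903 (permutation p = 0.00022 and 0.00079, adjusted 0.0070 and 0.024), -0.863 without the 2 farthest libraries and -0.562 over the 7 libraries. With the neocortical list, Gria1 had an r of -0.776 and a rho of -0.879 (permutation p = 0.0070 and 0.0015, adjusted 0.036 and 0.030), -0.753 without the 2 farthest libraries and -0.867 over the 7 libraries. Grin1 ran against the neocortical list with an r of -0.910 and a rho of -0.770 (permutation p = 0.00029 and 0.012, adjusted 0.0070 and 0.097), -0.765 without the 2 farthest libraries and -0.606 over the 7 libraries.

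Grin2c followed the astrocyte list, with an r of 0.938 and a rho of 0.891 (permutation p = 0.00027 and 0.00099, adjusted 0.0070 and 0.024), 0.909 without the 2 libraries farthest from the median of the list and 0.877 over the 7 libraries. It also followed the microglial list, with an r of 0.787 and a rho of 0.697 (permutation p = 0.0039 and 0.031, adjusted 0.027 and 0.12), 0.677 without the 2 farthest libraries and 0.306 over the 7 libraries. All 9 astrocyte markers had a higher fitted mean in RG2833 than in untreated rats, with a median log2 fold change of 0.33, and 0 of 9 passed adjustment. The median of the astrocyte list and the fold change of Grin2c (0.28) can be set side by side: Gja1, the astrocytic connexin 43 gene, had 0.32 (SE 0.13, unadjusted p 0.029) and Fgfr3, a fibroblast growth factor receptor gene of astrocytes, 0.52 (SE 0.20, unadjusted p 0.024). Both have an edgeR adjusted p of 0.841, and they are the only 2 of the 9 markers at an unadjusted p under 0.05. The log2 fold changes of the 9 ran from 0.14 (Aqp4) to 0.52 (Fgfr3). The summed level of the list was 6858 to 10682 CPM in untreated and 7932 to 11719 CPM in RG2833 libraries.

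Gria4, Grin2d and Grin3a went with the interneuron list (10 genes with Gad1, Gad2 and Slc32a1 among them). The mean log2 deviation of that list was 0.16, -0.38, 0.32, 0.07 and -0.04 in untreated and 0.06, -0.19, -0.06, 0.08 and -0.02 in RG2833 libraries. Grin3a followed it with an r of 0.846 and a rho of 0.806 (permutation p = 0.0027 and 0.0076, adjusted 0.022 and 0.091), Grin2d with an r of 0.814 and a rho of 0.770 (permutation p = 0.0045 and 0.013, adjusted 0.028 and 0.097), and Gria4 with an r of 0.783 and a rho of 0.527 (permutation p = 0.0065 and 0.12, adjusted 0.035 and 0.26). Over the 7 libraries that leave out untreated replicate 3 and RG2833 replicates 4 and 5, r was 0.888, 0.794 and 0.837. Without untreated replicates 2 and 3, the lowest and the highest in the list, it was 0.454, 0.520 and 0.697. None of these 3 rho values passed adjustment. The list was mixed between groups, with 3 of its 10 genes higher in RG2833 and 7 lower. Pvalb had a log2 fold change of 0.37 (unadjusted edgeR p 0.0067), against -0.50 for Sst (0.033) and -0.44 for Npy (0.049). All 3 had an edgeR adjusted p of 0.841.

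**Figure D4:**
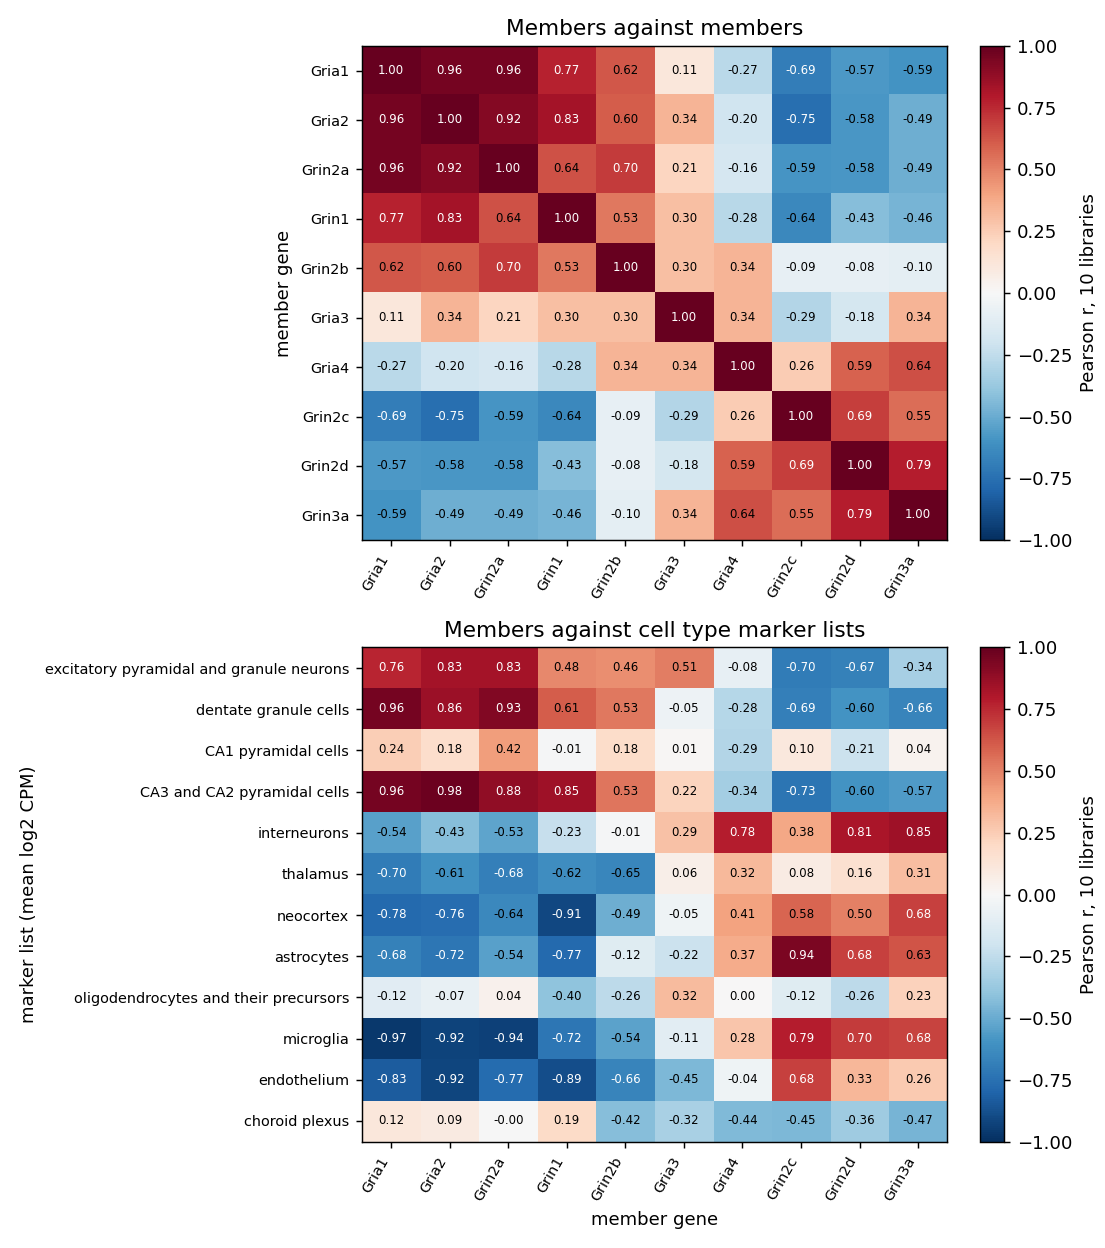
Pearson's r over the 10 libraries (colour and printed values) between members (top) and between members and the mean log2 CPM of 12 cell type marker lists (bottom). Gria1, Gria2, Grin2a and Grin1 form a block of positive values from 0.64 to 0.96 that is negative against Grin2c, Grin2d and Grin3a, and Grin2c reaches 0.94 with the astrocyte list.

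RefSeq promoters of the assembly GRCr8, covering 250 bases before to 50 bases after the gene's start, were available for Gria4, Grin1, Grin2c, Grin2d and Grin3a. Those of Grin2d and Grin3a, which varied together, are shown with those of Grin1 and Grin2c, which went opposite ways in the 3 libraries. Capitals mark CG dinucleotides, the sequence in which promoter DNA is methylated, and each is written 5' to 3' along the gene's own (minus) strand.
Grin1, chr3:28528705-28529004: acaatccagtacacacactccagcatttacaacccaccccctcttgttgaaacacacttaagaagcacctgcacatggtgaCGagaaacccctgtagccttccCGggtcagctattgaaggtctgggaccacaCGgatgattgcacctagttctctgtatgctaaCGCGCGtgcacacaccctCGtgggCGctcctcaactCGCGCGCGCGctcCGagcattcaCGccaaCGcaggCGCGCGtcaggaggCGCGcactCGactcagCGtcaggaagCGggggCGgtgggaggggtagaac
Grin2c, chr10:101005089-101005388: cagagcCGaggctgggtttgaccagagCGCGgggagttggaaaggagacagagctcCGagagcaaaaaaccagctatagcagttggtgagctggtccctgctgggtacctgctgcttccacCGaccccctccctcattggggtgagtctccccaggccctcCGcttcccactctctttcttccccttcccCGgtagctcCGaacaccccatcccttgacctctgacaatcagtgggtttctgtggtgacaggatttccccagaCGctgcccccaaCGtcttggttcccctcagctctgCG
Grin2d, chr1:105481187-105481486: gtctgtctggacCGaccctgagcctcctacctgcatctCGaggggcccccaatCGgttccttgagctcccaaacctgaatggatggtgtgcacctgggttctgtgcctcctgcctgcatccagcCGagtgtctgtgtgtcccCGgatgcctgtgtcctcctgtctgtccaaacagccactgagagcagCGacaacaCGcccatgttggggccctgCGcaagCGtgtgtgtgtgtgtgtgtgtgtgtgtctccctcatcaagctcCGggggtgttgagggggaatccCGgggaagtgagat
Grin3a, chr5:69001509-69001808: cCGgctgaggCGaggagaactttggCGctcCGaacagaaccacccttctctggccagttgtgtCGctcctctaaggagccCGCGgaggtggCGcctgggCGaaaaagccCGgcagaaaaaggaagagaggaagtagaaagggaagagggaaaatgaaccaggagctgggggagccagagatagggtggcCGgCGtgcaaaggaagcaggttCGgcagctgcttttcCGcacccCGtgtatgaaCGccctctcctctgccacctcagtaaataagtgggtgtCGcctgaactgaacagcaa
The Grin1 promoter held 25 CG dinucleotides (0.945 of the number its base composition gives), that of Grin3a 17 (0.671), and those of Grin2c and Grin2d 11 each (0.412 and 0.399), where the median of the 33469 RefSeq promoters was 7. Their GC contents were close, at 59.7% for Grin1, 60.3% for Grin2c, 60.7% for Grin2d and 58.7% for Grin3a, above the median of 51.7%. A GC box (GGGCGG, read on both strands) was found once in the Grin1 window and in none of the other 3, and 33.1% of all promoters hold one. No TATA box (TATAAA, in 14.2% of promoters), E box (CACGTG, 6.42%) or cAMP response element (TGACGTCA, 1.83%), each read on both strands, occurred in the 4 windows. The letter matches describe these windows only.

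Ratios between subunits were compared within libraries, and none of the 3 differed between the groups by more than the spread between rats. The 3 ratios examined were Gria2 to Gria1 (the balance that bears on calcium permeability of AMPA receptors), Grin2a to Grin2b (the balance that shifts with synaptic maturation) and Gria1 to Grin1 (AMPA against NMDA receptor). Because CPM is not divided by length, only the differences of a ratio between libraries are read. Gria2 to Gria1 was 1.75, 1.72, 3.12, 2.26 and 1.94 in untreated and 1.89, 1.97, 1.72, 2.06 and 2.28 in RG2833 libraries. It was highest in untreated replicate 3, where Gria1 was lower by more than Gria2. The mean log2 ratio was 1.07 ± 0.35 in untreated and 0.98 ± 0.15 in RG2833 rats (SD, n = 5 each; two-sided exact permutation p = 0.667).

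Grin2a to Grin2b was 1.04, 1.22, 0.415, 1.07 and 1.15 in untreated and 1.30, 1.13, 1.16, 0.748 and 0.853 in RG2833 libraries. It was lowest in untreated replicate 3, followed by RG2833 replicates 4 and 5. The mean log2 ratio was -0.12 ± 0.65 and 0.03 ± 0.33 (SD, n = 5 each; two-sided exact permutation p = 0.754). Gria1 to Grin1 was 0.590, 0.595, 0.238, 0.536 and 0.524 in untreated and 0.594, 0.551, 0.673, 0.473 and 0.463 in RG2833 libraries. The lowest 3 libraries were again the same, and the mean log2 ratio was -1.08 ± 0.56 and -0.87 ± 0.23 (SD, n = 5 each; two-sided exact permutation p = 0.611). All 3 adjusted p-values were 0.754, and 5 against 5 libraries cannot give an exact p below 0.00794. Without untreated replicate 3 the differences of RG2833 minus untreated, -0.09, 0.15 and 0.21, became 0.05, -0.14 and -0.04. Without all 3 libraries they kept their signs, at -0.040, 0.097 and 0.108 (two-sided exact permutation p = 0.743, 0.286 and 0.286; 4 untreated against 3 RG2833 libraries).

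**Figure D5:**
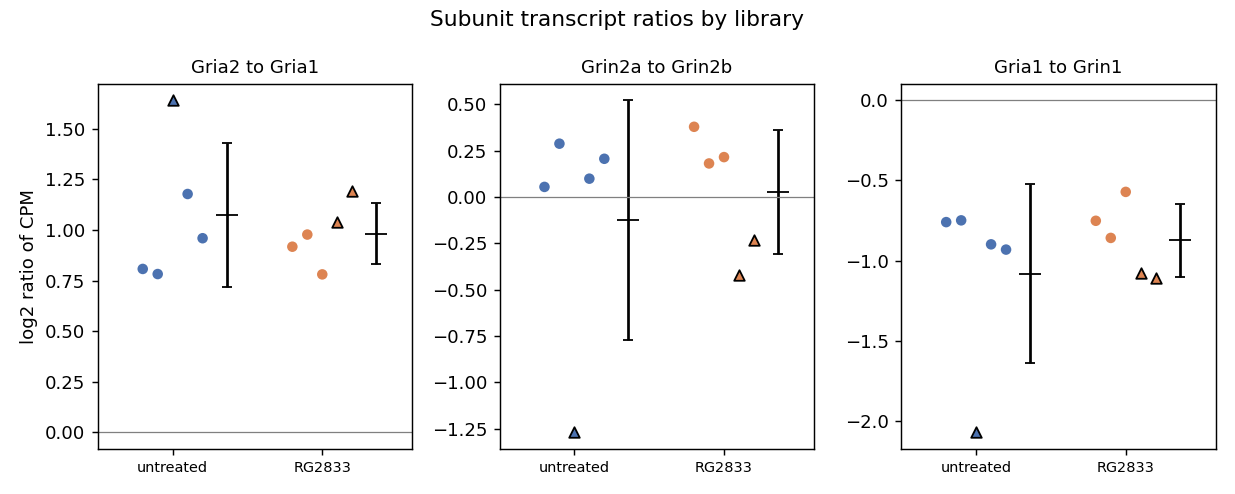
Log2 ratio of CPM (vertical axis) of Gria2 to Gria1, Grin2a to Grin2b and Gria1 to Grin1 in each untreated (blue) and RG2833 (orange) library; triangles mark untreated replicate 3 and RG2833 replicates 4 and 5, and black bars show the mean ± SD of 5 libraries. Untreated replicate 3 lies outside all other libraries in each panel, at 1.64, -1.27 and -2.07.

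Other genes of glutamate signalling, taken from lists by role, gave no gene past the adjusted threshold in the same comparison. Of 8 other ionotropic receptor genes, 5 had a higher and 3 a lower fitted mean in RG2833, with a median log2 fold change of 0.04. Grid1, which encodes the delta receptor GluD1, was the only one of them at an unadjusted p under 0.05, at 72.5 ± 6.67 CPM without and 81.7 ± 4.39 CPM with the drug (log2 fold change 0.17, SE 0.07, unadjusted p 0.035, edgeR adjusted p 0.841). Grin3b, the other GluN3 gene, was at 3.60 ± 0.55 and 4.39 ± 0.41 CPM, with the largest log2 fold change of the list, 0.29. The kainate receptor genes Grik2 and Grik4 had the lowest, -0.10 and -0.06. The range of Grik4, which is also in the CA3 and CA2 marker list, over the 10 libraries was 2.21 on the log2 scale, and that of Grin2a was 2.19.

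The 8 metabotropic receptor genes divided into 4 higher and 4 lower, with a median log2 fold change of -0.02 and 0 genes at an unadjusted p under 0.05. Grm4 (0.19) and Grm3 (0.19) were the highest, and Grm6 had -0.08. Of 21 listed auxiliary subunits and assembly factors of AMPA receptors, 18 were tested, 6 of them higher and 12 lower, with a median of -0.07 and none at an unadjusted p under 0.05. Here Cacng7 (0.18) encodes a TARP and Cnih2 (0.12) a cornichon, both auxiliary subunits, whereas Cacng5 (-0.34) encodes another TARP and Nptxr (-0.21) the neuronal pentraxin receptor, which clusters AMPA receptors from outside the cell. Shisa6 (0.10) had the widest range of that list, 3.41 on the log2 scale over the 10 libraries, and is named for that range after it was seen.

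Of 19 scaffolds, kinases and trafficking partners, 9 were higher and 10 lower, with a median of -0.01 and none at an unadjusted p under 0.05. The scaffold genes Dlg2 (0.34) and Dlg1 (0.28), which encode PSD-93 and SAP97, and Dlg3 (-0.17), which encodes SAP102, lay at opposite ends, with Camk2b (-0.17), a subunit gene of the kinase CaMKII, beside Dlg3. In the adenosine deaminase family, to which the editing enzyme of the Gria2 transcript belongs, the log2 fold change was -0.02 for Adar, 0.08 for Adarb1 and 0.13 (SE 0.15) for Adarb2, a member without known editing activity. Gene counts do not resolve edited sites or the flip and flop exons of the Gria genes, so neither was measured.

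The genes whose log2 CPM over the 10 libraries was most like each member's, among genes with a mean of at least 5 CPM, were found by Pearson's r. For Gria1 they were Adcy9 (0.996) and Wbscr17 (0.995), for Gria2 Cul2 (0.994) and Dnaja2 (0.993), for Grin1 Zfyve27 (0.992) and Ggt7 (0.983) and for Grin2a Stxbp5l (0.983) and Vps13d (0.981). The likeness was lower for the members with little variation, with Dcun1d4 (0.909) and Kcnv1 (0.868) for Gria3 and Mgea5 (0.906) and Ncam2 (0.886) for Gria4. Grin2b was most like Htt (0.950), the huntingtin gene, and Bicd1 (0.903). Grin2c was most like Gpt (0.980) and Apoe (0.980), the apolipoprotein E gene, which astrocytes express strongly. Grin2d was most like Htr3a (0.964), a serotonin receptor gene of interneurons, and Tpd52l1 (0.958), and Grin3a was most like Slc35f1 (0.977) and the kainate receptor gene Grik1 (0.964). These values describe the 10 libraries, which share the 3 that stand apart.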

How the data were processed

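Per the labels' protocols, RNA was purified on RNeasy columns, and the mRNA libraries keep the strand. The authors deposited RSEM expected counts per gene, estimates that need not be whole (11.6% were not), and a second table of signal, TMM-normalized counts per 1000000. The submitters' processing notes name bcl2fastq 2.17, Bowtie2 2.1.0, RSEM 1.2.15, edgeR and the build rn6. The annotation is not given in the sources used here. Of the values of the deposited signal table, 100% were whole multiples of 1 read (tolerance 0.01), and 100% equalled the rounded expected counts. The edgeR test on those reads gave 0 calls. The CPM given here were computed anew and are not the deposited values. By library, the members' median ratio of deposited to computed CPM ran from 0.987 (untreated replicate 2) to 1.029 (RG2833 replicate 3).

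Expected counts were rounded and fitted with edgeR 4.0.16 in R 4.3.3 (filterByExpr with minimum count 10 and minimum total 15, TMM, robust quasi-likelihood F test), which kept 12161 genes (70.8%). P-values were adjusted over these genes. Log2 CPM used a prior count of 2. Ratios were compared by exact permutation over 252 regroupings, and correlations by 100000 permutations. Fits were tested on simulated data. No libraries were duplicates: the chi-square statistic per gene over 45 pairs was at least 7.20, where sampling noise gives about 1.

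Alternatives were other scalings and filters, DESeq2 1.42.0, limma-voom weights (limma 3.58.1), surrogate variables (sva 3.50.0), a replicate block and left-out libraries. All 10 members are named. Of the glutamate signalling lists, the genes named are the 2 highest and 2 lowest log2 fold changes of each and those at an unadjusted p under 0.05; 1 such gene is not reported here. The 2 genes nearest each member are named, and of the marker lists only genes set beside a result. The members and lists were chosen with earlier results of these data known. Each library is 1 rat, and the labels name no batches.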

Additional observations from a re-analysis of the deposited data

Results flagged for a closer look

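Each member and each of the 3 subunit ratios was examined for a library far from the other 4 of its group, meaning a gap to the nearest library above 0.71 of the group's range (Dixon's 95% critical value for 5). Of 26 such sets of 5 values, 7 held one, where chance gives about 1.3. The sets share libraries and genes, so they are not independent.

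Untreated replicate 3 accounted for 4 of the 7. Its Gria2 level of 395 CPM lay below the other untreated libraries (653 to 748 CPM; gap 0.73). Its Grin2c level of 182 CPM lay above their 105 to 125 CPM (gap 0.743). Its log2 ratio of Grin2a to Grin2b was -1.27, against 0.05 to 0.29 in the others (gap 0.850), and its log2 ratio of Gria1 to Grin1 was -2.07, against -0.93 to -0.75 (gap 0.862). Among the untreated libraries it was also the lowest in the dentate granule cell and the CA3 and CA2 markers and the highest in ribosomal RNA. RG2833 replicate 4 was apart in Gria3, at 176 CPM against 206 to 207 CPM in the other RG2833 libraries (gap 0.960), and in Grin2d, at 22.2 CPM against 16.1 to 17.8 CPM (gap 0.712). RG2833 replicate 3 was apart in Grin2b alone among the members, at 109 CPM against 70.1 to 75.8 CPM (gap 0.852).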

How the results depend on the processing

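No member passed the adjusted threshold under any alternative tried; the smallest adjusted p was 0.179, for Grin2c with 2 surrogate variables. Of 210 member fold changes (21 alternatives each), 188 kept their direction and 22 changed sign; 10 of the 188 come from reads recovered from the deposited table, which equal the rounded counts, and so could not differ. Among all genes the number called was 0 in each fit except DESeq2 (6) and 2 surrogate variables (118), and at an unadjusted p under 0.05 it was 688, against 401 with the replicate block, 1952 with 2 surrogate variables, 1267 with limma-voom weights, and 1732, 375 and 423 without untreated replicate 3, RG2833 replicate 4 and RG2833 replicate 5. Members at an unadjusted p under 0.05 numbered 4 with 2 surrogate variables (Gria1, Grin1, Grin2a and Grin2c), and Grin2c was the only one with limma-voom weights, without untreated replicate 3 and without the 3 libraries lowest in Gria1.

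The sign of Gria1 turned to 0.0041 with the replicate block, 0.11 with 2 surrogate variables and 0.048 without the 3 libraries, that of Gria2 to 0.011 without the 3 libraries, that of Gria4 to 0.00087 in DESeq2 and that of Grin3a to -0.11 without the 2 libraries rich in choroid plexus. With each library left out in turn, the log2 fold change ran from -0.22 to 0.11 for Gria1, from -0.19 to 0.030 for Gria2, from -0.12 to -0.03 for Gria3, from -0.049 to 0.036 for Gria4, from -0.22 to -0.08 for Grin1, from -0.069 to 0.28 for Grin2a, from -0.068 to 0.13 for Grin2b, from 0.22 to 0.45 for Grin2c, from 0.0096 to 0.23 for Grin2d and from -0.093 to 0.26 for Grin3a. The difference in log2 ratio ran from -0.16 to 0.050 (Gria2 to Gria1), from -0.14 to 0.26 (Grin2a to Grin2b) and from -0.040 to 0.29 (Gria1 to Grin1), with the sign turned only without untreated replicate 3. Of the correlations among members, 10 passed as deviations from group means and 0 without the 3 libraries, where 7 libraries remain. The cause of these changes was not tested.

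The labels do not state that the replicate numbers pair the rats. Deviations of same-numbered libraries correlated at -0.26, -0.11, -0.49, -0.03 and -0.19. The replicate block called 0 genes, as did the fit without it, so neither result settles whether rats were paired. Leaving out the 3 libraries and using the reads recovered from the deposited table were chosen after the data were seen. Depth limits Grin3a most, whose lowest count in a library was 61; the number of rats, 5 per group, limits all members.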
